A study of Mus musculus with 12 samples.

Results

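The genes described here are 40 genes of the cell division cycle, 15 that work in DNA replication or switch it on and 25 that work in mitosis. They were chosen by symbol from a list among the 55487 genes of the deposited count table, with earlier results of these data known. All 40 passed the filter on low counts that left 18407 genes for testing. The study asked which transcripts of the lung differ with age. Whole lungs of C57BL/6NCr mice, a substrain of C57BL/6, were sequenced in 4 groups, 6M, 12M, 20M and 30M, which are ages of 6, 12, 20 and 30 months. All groups share strain and tissue, and no genotype, treatment or sex is given in the labels. Each age has 3 libraries, written here as age and library number (6M_201), with 12152066 to 15058628 counts each. The labels do not say that each library is a separate animal, so each p-value speaks only of the spread among the libraries. Levels are given as CPM (reads per 1e+06 reads of a library, after TMM scaling, which corrects for differences in library composition), as mean ± SD over 3 libraries or library by library.

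Dividing cells copy their DNA in S phase and share it out in mitosis, and both programmes are switched on mainly by transcription. Genes of DNA replication are released at the start of S phase by E2F factors, whereas most genes of mitosis are released later by B-MYB and FOXM1 acting with the MuvB core, a complex that the DREAM repressor also contains, bound to a promoter element called the CHR. In the adult lung few cells divide at rest, among them alveolar type 2 cells, capillary endothelium, alveolar macrophages and lymphocytes. In whole tissue, a change in the number of dividing cells and a change in RNA per dividing cell cannot be told apart.

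The promoters of the members carry these elements in different proportions. RefSeq promoters (GRCm38.p6, 250 bases before to 50 after the transcription start) were matched by symbol for 33 of the 40 members, 36 promoters in all. The CHR was searched as the word TTTGAA or the word TTCGAA. The E2F site was searched as the word TTGGCGC, the word TTCCCGC, the word TTGCCGC or the word TTCGCGC, and the NF-Y site as CCAAT. All were searched on both strands. The words of the 3 elements can overlap one another. A CHR word was in 17 of 21 promoters of mitosis members (20 genes), or 81%. It was in 3 of 15 promoters of replication members (13 genes), or 20%, and in 19.2% of all 32851 promoters of that length. An E2F word was in 3 of the 21 (14.3%), in 9 of the 15 (60%) and in 9.57% of all promoters. CCAAT was in 90.5% and 80% of the 2 groups against 37.4% of all, and CHR together with CCAAT in 81% and 20% against 7.52%. These matches describe the sequence and are not binding data.

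Promoters of 6 members that the results below turn on are printed 5′ to 3′ along the gene, with every matched word in capitals. The first 4 belong to mitosis genes and hold CHR and CCAAT words, Mki67 also an E2F word. The last pair belongs to replication genes and holds E2F and CCAAT words and no CHR word; for Uhrf1 this is the upstream one of its RefSeq promoters.
Mki67, chr7:135716330-135716629, minus strand: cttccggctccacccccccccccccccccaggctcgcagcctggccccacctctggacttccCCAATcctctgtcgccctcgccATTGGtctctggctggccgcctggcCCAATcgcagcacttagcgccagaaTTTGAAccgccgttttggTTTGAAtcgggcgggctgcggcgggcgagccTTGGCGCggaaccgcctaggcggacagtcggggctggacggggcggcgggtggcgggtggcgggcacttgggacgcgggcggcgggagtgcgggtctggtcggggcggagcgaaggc
Top2a, chr11:99024140-99024439, minus strand: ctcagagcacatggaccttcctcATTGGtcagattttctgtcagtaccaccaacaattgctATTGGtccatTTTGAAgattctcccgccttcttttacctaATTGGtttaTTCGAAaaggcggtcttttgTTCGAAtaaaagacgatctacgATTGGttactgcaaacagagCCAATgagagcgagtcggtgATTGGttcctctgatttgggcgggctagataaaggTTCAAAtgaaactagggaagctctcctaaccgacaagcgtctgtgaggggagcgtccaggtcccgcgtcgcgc
Cdc20, chr4:118437294-118437593, minus strand: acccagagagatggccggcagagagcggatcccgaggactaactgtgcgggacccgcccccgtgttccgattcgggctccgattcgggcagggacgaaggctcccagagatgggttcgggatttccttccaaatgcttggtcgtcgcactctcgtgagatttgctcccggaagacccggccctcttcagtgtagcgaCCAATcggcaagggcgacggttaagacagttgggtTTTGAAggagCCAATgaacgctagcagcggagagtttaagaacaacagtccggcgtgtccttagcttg
Cenpf, chr1:189688037-189688336, minus strand: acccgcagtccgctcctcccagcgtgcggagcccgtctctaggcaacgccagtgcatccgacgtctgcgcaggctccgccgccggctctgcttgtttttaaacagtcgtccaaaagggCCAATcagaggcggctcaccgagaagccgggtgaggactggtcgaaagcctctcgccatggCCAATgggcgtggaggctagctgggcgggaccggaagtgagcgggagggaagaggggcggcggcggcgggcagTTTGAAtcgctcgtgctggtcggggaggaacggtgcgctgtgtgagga
Uhrf1, chr17:56303087-56303386, plus strand: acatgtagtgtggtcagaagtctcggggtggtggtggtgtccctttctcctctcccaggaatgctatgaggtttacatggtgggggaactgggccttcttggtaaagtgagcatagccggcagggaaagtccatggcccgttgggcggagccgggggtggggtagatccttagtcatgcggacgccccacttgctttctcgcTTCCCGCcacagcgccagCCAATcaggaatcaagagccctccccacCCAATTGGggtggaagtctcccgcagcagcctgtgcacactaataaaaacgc
Mcm5, chr8:75109259-75109558, plus strand: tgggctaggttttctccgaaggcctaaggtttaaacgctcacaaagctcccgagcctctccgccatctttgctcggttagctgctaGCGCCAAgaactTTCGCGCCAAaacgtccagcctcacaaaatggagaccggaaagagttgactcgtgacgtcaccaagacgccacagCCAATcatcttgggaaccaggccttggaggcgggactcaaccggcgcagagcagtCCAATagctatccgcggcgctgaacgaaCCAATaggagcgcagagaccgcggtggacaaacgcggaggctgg

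Some libraries stood apart before any comparison. Expression relative to the 6M mean went with the GC content of genes, and Spearman's rho over genes was 0.465 in 20M_222, 0.358 in 20M_221, 0.328 in 30M_220, 0.229 in 12M_208 and -0.0869 to 0.0518 in the remaining libraries, and the first 3 are called here the libraries of steep GC trend. Genes are not independent, so rho describes the libraries. Library 20M_222 also held skeletal muscle transcripts, which bear on 1 member below. No library was a copy of another of the same age, as chi-square per gene between libraries of an age was 6.89 to 53.4. The counts behind the members ran from 26 to 1227 per library for replication and from 7 upward for mitosis.

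At 30M, compared with 6M, transcripts of cell division genes were mostly higher, with a larger median difference for mitosis than for replication. Of the 40 members 2 rose, the proliferation antigen Mki67 and the S phase regulator Uhrf1, 0 fell and 38 were not called. A gene is called here when the quasi-likelihood test of edgeR gives a Benjamini-Hochberg adjusted p under 0.05 over all 18407 genes, and 1.96% of them were called in this comparison, 1.93% higher and 0.0272% lower. The log2 difference was above 0 in 38 of the 40 members, against 50.5% of all genes, and the unadjusted p was under 0.05 in 13, against 11.6%. In 16 members all 3 libraries of 30M lay above all 3 of 6M, against 9.89% of all genes, and in 0 all lay below, against 8.66%. The median log2 difference was 0.50 over the members and 0.00284 over all genes. Because the members were chosen with earlier results known, these contrasts with all genes are description and not independent support. Both calls rest on few libraries: 0 members were called without 6M_201, 6M_202, 6M_203 or 30M_218. Calls over all genes fell there too, to 217, 121, 69 and 214, against 361 with all libraries. The count of members was 1, Mki67, without 12M_206, 12M_207 or 30M_220, and 4 without 20M_222. Over all genes 323, 339, 326 and 378 were called in these fits. DESeq2 called 5 members and 753 genes in all, and limma voom 3 members and 595 genes.

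**Figure D1:**
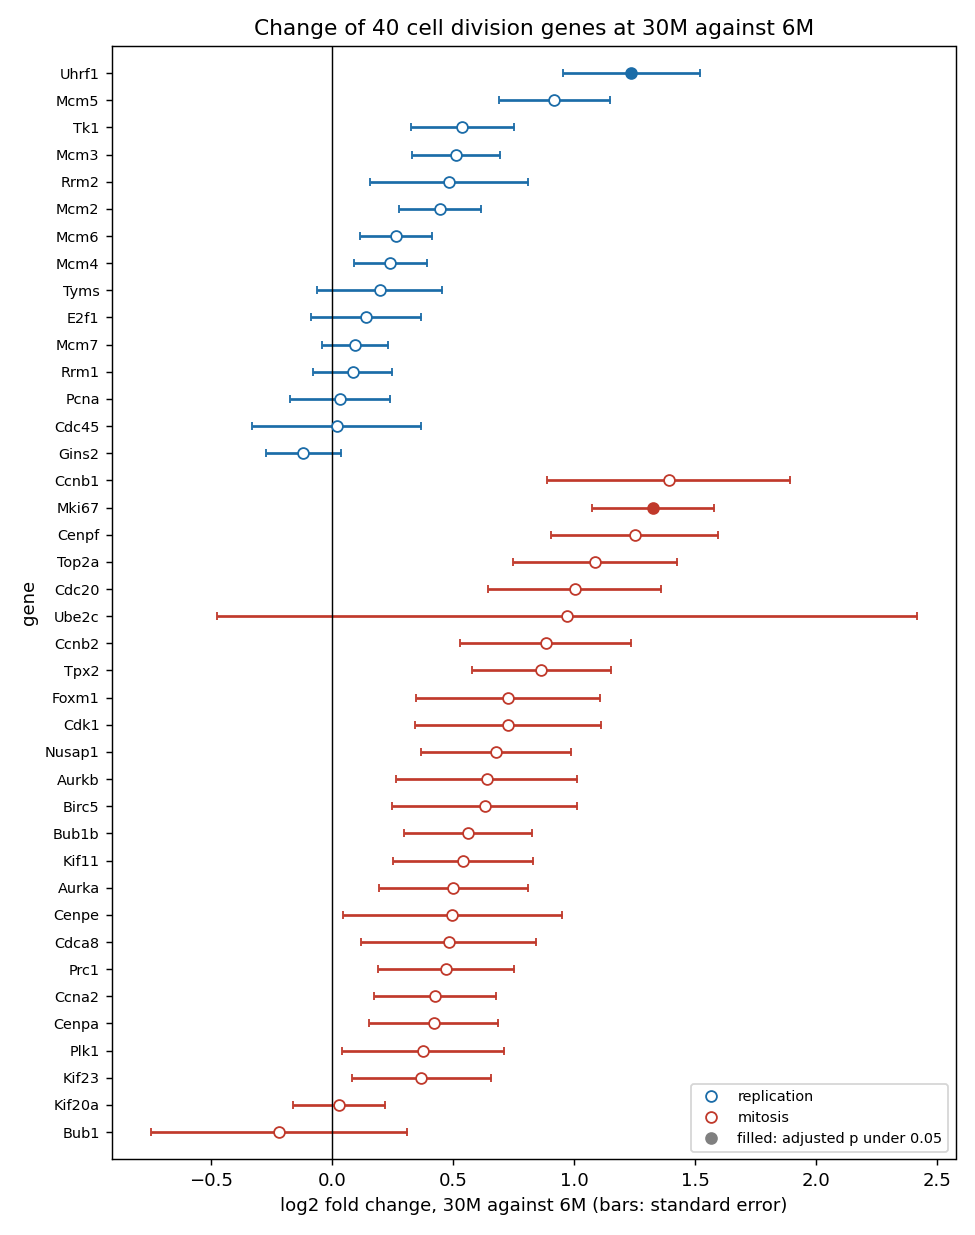
Log2 fold change at 30M against 6M (x axis, points, with standard errors as bars) for each of the 40 genes (y axis), replication in blue and mitosis in red. The 2 filled points, Uhrf1 and Mki67, are the called genes; Gins2 and Bub1 are the only points left of 0.

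The MCM genes encode the 6 subunits of the helicase that opens the DNA at each origin. None of the 6 was called at 30M against 6M, and 3 had an unadjusted p under 0.05 (median log2 difference 0.35). Mcm5 (chromosome 8, 75109569 to 75128439) stood at 8.06, 7.92 and 6.31 CPM at 6M, 9.61, 6.74 and 10.9 at 12M, 8.08, 6.81 and 10.9 at 20M and 15.1, 13.04 and 14.03 at 30M. All 3 libraries of 30M were higher than every library of the other ages, and the test missed the threshold (log2 fold change 0.92, SE 0.23, adjusted p = 0.06296). DESeq2, limma voom, a fit of only the 2 ages and the fit without 20M_222 called it higher. Mcm3 stood at 16.1, 14.8 and 14.6 CPM at 6M, 16.97, 14.4 and 22.6 at 12M, 16.6, 15.6 and 19.6 at 20M and 18.9, 23.5 and 22.4 at 30M. The 30M libraries lay above those of 6M but overlapped 12M_208 and 20M_222 (log2 fold change 0.51, SE 0.18, adjusted p = 0.238). Mcm2 stood at 13.8, 12.8 and 12.7 CPM at 6M, 13.6, 13.1 and 17.8 at 12M, 16.2, 13.3 and 14.99 at 20M and 20.1, 17.6 and 15.8 at 30M. Here too 30M and 6M did not overlap, while 12M_208 and 20M_213 reached into the range of 30M (log2 fold change 0.45, SE 0.17, adjusted p = 0.289). Mcm4, Mcm6 and Mcm7, the helicase subunits with the higher counts, had log2 differences of 0.24, 0.26 and 0.09, and their libraries overlapped between 6M and 30M.

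Cdc45 and the GINS complex join the MCM ring to make the active helicase, and neither Cdc45 nor Gins2 was called. Cdc45 was at 3.43 ± 0.733 CPM in the 6M group and 3.49 ± 0.848 in the 30M group. Gins2 stood at 51.6, 50.1 and 45.2 CPM at 6M, 49.3, 44.4 and 34.04 at 12M, 45.9, 55.8 and 49.2 at 20M and 38.7, 46.7 and 49.8 at 30M. Its libraries overlapped at all ages, and it was the replication member with the lowest log2 difference (log2 fold change -0.12, SE 0.15, adjusted p = 0.876). Of its exon bases 67.3% lie in exons of Gse1, so its counts are uncertain. Pcna, the clamp that holds the polymerase on DNA, had the highest level per length among the members, 33.5 CPM per kb of exon at 6M against a median of 2.79 for the replication members. Pcna stood at 84.1, 80.6 and 76.5 CPM at 6M, 85.9, 88.5 and 72.97 at 12M, 81.6, 50.9 and 53.2 at 20M and 87.7, 101 and 58.5 at 30M. The low libraries were 20M_221, 20M_222 and 30M_220, the 3 of steep GC trend, and 6M and 30M overlapped (log2 fold change 0.03, SE 0.21, adjusted p = 0.982). At 20M against 6M its log2 difference was -0.38 (edgeR adjusted p = 0.646), and limma voom with quality weights called it lower there (-0.55, adjusted p = 0.0451).

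The enzymes that supply deoxynucleotides gave small differences. Tk1, the thymidine kinase of S phase, stood at 8.58, 6.93 and 7.11 CPM at 6M, 7.59, 5.73 and 4.56 at 12M, 9.004, 8.81 and 9.82 at 20M and 9.27, 12.2 and 11.4 at 30M. All 30M libraries were above those of 6M and 12M, and 20M_222 was within their range (log2 fold change 0.54, SE 0.21, adjusted p = 0.318). Against 12M its difference was larger (log2 0.88, adjusted p = 0.0929 by edgeR and 0.00969 by DESeq2). Rrm1 and Rrm2, the subunits of ribonucleotide reductase, had log2 differences of 0.08 and 0.48 at 30M against 6M, and thymidylate synthase, Tyms, had 0.20. The 6M and 30M libraries of these 3 genes overlapped.

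Uhrf1 carries DNA methylation marks over to newly copied strands, and it was the replication member that rose at 30M. Uhrf1 (chromosome 17, 56303321 to 56323486) stood at 4.105, 3.22 and 4.69 CPM at 6M, 5.33, 4.63 and 6.33 at 12M, 4.31, 4.001 and 7.38 at 20M and 7.499, 11.4 and 9.44 at 30M. The lowest library of 30M, 30M_216, lay just above the highest of the other ages, 20M_222 at 7.38. From 4.004 ± 0.7399 to 9.45 ± 1.95 CPM this was a rise of log2 1.24 (SE 0.28, edgeR adjusted p = 0.0436). The call was lost without 6M_201 (edgeR adjusted p = 0.129), 6M_202 (0.198), 6M_203 (0.143), 12M_206 (0.0627), 12M_207 (0.0558), 30M_218 (0.145) or 30M_220 (0.0863). It was also lost without the 3 libraries of steep GC trend (0.0634) and with a term for them (0.0610). E2f1, an activator of S phase genes, had 13.8 ± 2.94 CPM in the 6M group and 15.2 ± 3.86 in the 30M group, with overlapping libraries.

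**Figure D2:**
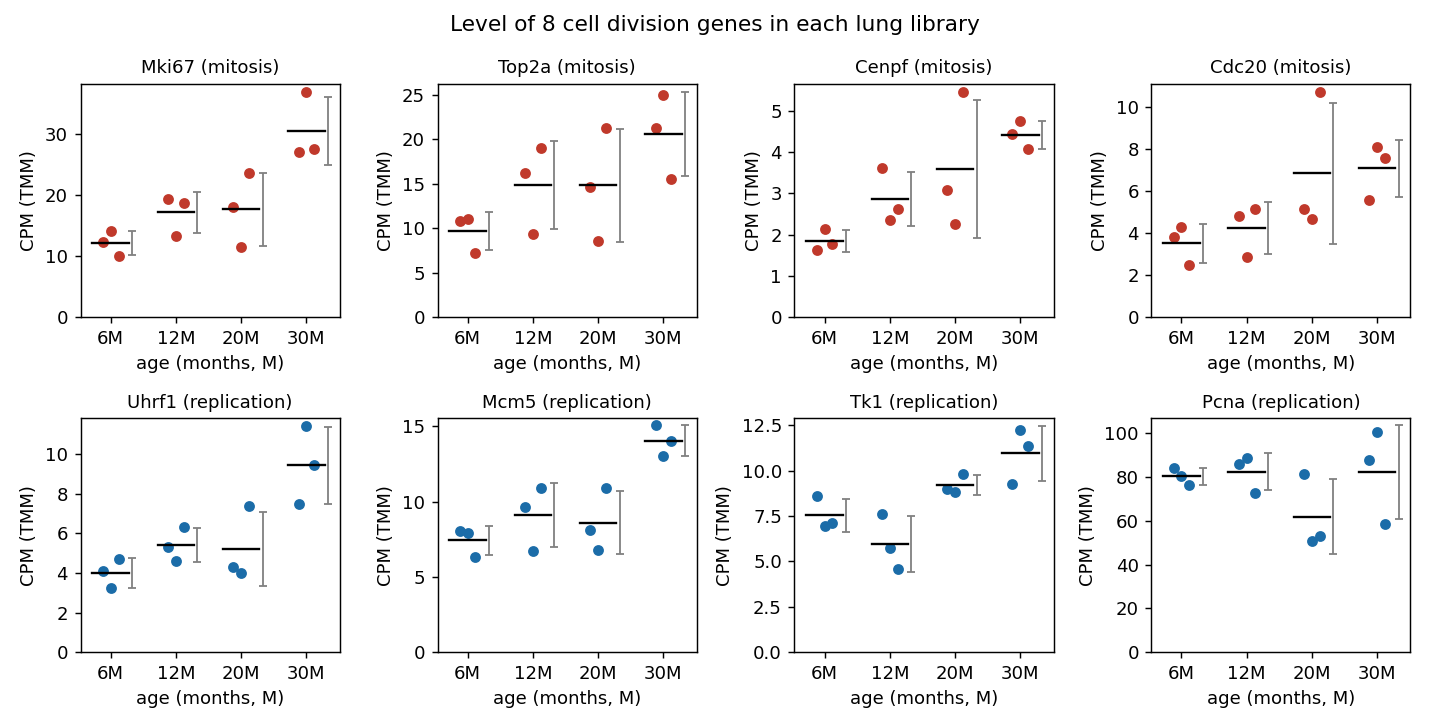
CPM of 8 of the genes (y axes, each from 0) by age in months (x axes), 1 point per library, with a black line for the mean and a grey bar for the SD over 3 libraries. The 30M libraries of Mki67, Uhrf1 and Mcm5 lie above every other library, 20M_222 is the highest library of Cenpf and Cdc20, and Pcna overlaps at all ages.

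Mki67 and Top2a act on mitotic chromosomes, the first as a coat that keeps them apart and the second as the enzyme that untangles them. Mki67, the gene of the Ki-67 antigen used to count dividing cells (chromosome 7, 135689784 to 135716361), stood at 12.3, 14.1 and 10.1 CPM at 6M, 19.4, 13.4 and 18.8 at 12M, 18.01, 11.6 and 23.6 at 20M and 27.1, 36.9 and 27.6 at 30M. All 3 libraries of 30M lay above the other 9. It rose from 12.2 ± 2.01 to 30.5 ± 5.52 CPM (log2 1.33, SE 0.25, edgeR adjusted p = 0.0173). The adjusted p was 0.0637 without 6M_201, 0.0534 without 6M_202, 0.129 without 6M_203 and 0.0637 without 30M_218. Top2a stood at 10.8, 11.1 and 7.19 CPM at 6M, 16.2, 9.35 and 19.004 at 12M, 14.6, 8.56 and 21.3 at 20M and 21.3, 24.9 and 15.6 at 30M. Its 30M libraries were above those of 6M and overlapped 12M_206, 12M_208 and 20M_222 (log2 fold change 1.08, SE 0.34, adjusted p = 0.161). DESeq2 called it higher.

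Cyclins A2, B1 and B2 with their kinase Cdk1 drive entry into mitosis, and Foxm1 switches on many genes of that phase. Their log2 differences at 30M against 6M ran from 0.42 for Ccna2 to 1.39 for Ccnb1, with a median of 0.73 and 0 of 5 called. Ccnb1 had the lowest counts of the members, down to 7 in a library, and stood at 1.49, 1.49 and 0.566 CPM at 6M, 2.18, 1.26 and 1.44 at 12M, 1.77, 1.06 and 2.66 at 20M and 2.097, 5.08 and 2.198 at 30M. The 30M libraries were above those of 6M, 30M_218 far above the rest (log2 fold change 1.39, SE 0.50, adjusted p = 0.249). Its log2 difference was the largest of all members with all libraries, and without 30M_218 it was 0.85, below the lowest value of Mki67 with 1 library left out, 1.17. Cdk1 showed the same library most clearly, at 10.3 CPM in 30M_218 against 4.596 and 3.23 in 30M_216 and 30M_220 and 3.64 ± 0.293 at 6M. Ccna2 shares 12.5% of its exon bases with Exosc9, and a Ccnb2 pseudogene held 14 to 63 counts per library. A Ccnb1 pseudogene held 0 to 6 counts per library, and 5 in 6M_203, the lowest library of Ccnb1. Ccna2, Ccnb1 and Ccnb2 therefore have uncertain counts.

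Among the kinetochore and checkpoint genes the log2 differences ran from -0.22 to 1.25, and 0 of 5 were called. Cenpf, a kinetochore protein of late G2 and mitosis, stood at 1.64, 2.15 and 1.78 CPM at 6M, 3.61, 2.36 and 2.62 at 12M, 3.08, 2.25 and 5.46 at 20M and 4.43, 4.76 and 4.07 at 30M. The 30M libraries exceeded those of 6M and 12M, and 20M_222 was the highest of all (log2 fold change 1.25, SE 0.34, adjusted p = 0.0966). DESeq2 and the fit without 20M_222 called it higher. Bub1, a checkpoint kinase, stood at 2.84, 6.36 and 4.85 CPM at 6M, 7.36, 3.37 and 2.45 at 12M, 6.23, 1.81 and 2.88 at 20M and 3.47, 6.23 and 2.39 at 30M. Its libraries overlapped widely at all ages, and its log2 difference was the lowest of the members (log2 fold change -0.22, SE 0.53, adjusted p = 0.943). It turned to 0.0624 without 6M_202, 0.0529 without 30M_220, 0.0528 without the 3 libraries of steep GC trend and 0.119 with a term for them. Bub1b, which encodes the checkpoint protein BubR1, had a log2 difference of 0.56 with no overlap between 6M and 30M. The centromere genes Cenpa, whose product is the centromeric histone, and Cenpe, a kinetochore motor, had 0.42 and 0.50 with overlap.

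The chromosomal passenger genes Aurkb, Birc5 and Cdca8, whose products correct faulty attachments, had log2 differences of 0.64, 0.63 and 0.48, and 0 were called. Among the spindle genes, 0 of 5 were called and the differences ran from 0.38 for the kinase Plk1 to 0.86 for Tpx2. Tpx2, which starts microtubule growth near chromosomes, stood at 3.73, 3.96 and 4.28 CPM at 6M, 4.88, 4.97 and 6.84 at 12M, 3.92, 3.44 and 6.94 at 20M and 6.85, 8.78 and 6.21 at 30M. The 30M libraries lay above those of 6M, with 12M_208 and 20M_222 in their range (log2 fold change 0.86, SE 0.29, adjusted p = 0.195). Kif11, the motor that pushes the spindle poles apart, stood at 3.58, 4.04 and 5.17 CPM at 6M, 4.13, 2.78 and 3.38 at 12M, 5.62, 4.001 and 8.42 at 20M and 5.81, 6.397 and 6.401 at 30M. Its 12M libraries were low, 20M_222 was the highest, and 30M lay above 6M (log2 fold change 0.54, SE 0.29, adjusted p = 0.526). The kinase Aurka had a log2 difference of 0.50 with overlap, and the spindle protein Nusap1 had 0.68 without.

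Cytokinesis genes, which act in the final separation of the daughter cells, had the lowest median log2 difference among the roles in mitosis (0.37). Kif20a had 15.5 ± 2.26 CPM in the 6M group and 15.8 ± 2.74 in the 30M group, and it shares 29.3% of its exon bases with Cdc23. Kif23 had a log2 difference of 0.37 and Prc1, which shares 11.1% with Rccd1, had 0.47. Cdc20, which activates the anaphase-promoting complex that ends mitosis, stood at 3.81, 4.29 and 2.51 CPM at 6M, 4.81, 2.86 and 5.15 at 12M, 5.16, 4.69 and 10.7 at 20M and 5.56, 8.12 and 7.56 at 30M. The 30M libraries were above those of 6M and 12M, and 20M_222 was above all others (log2 fold change 1.001, SE 0.36, adjusted p = 0.244).

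**Figure D3:**
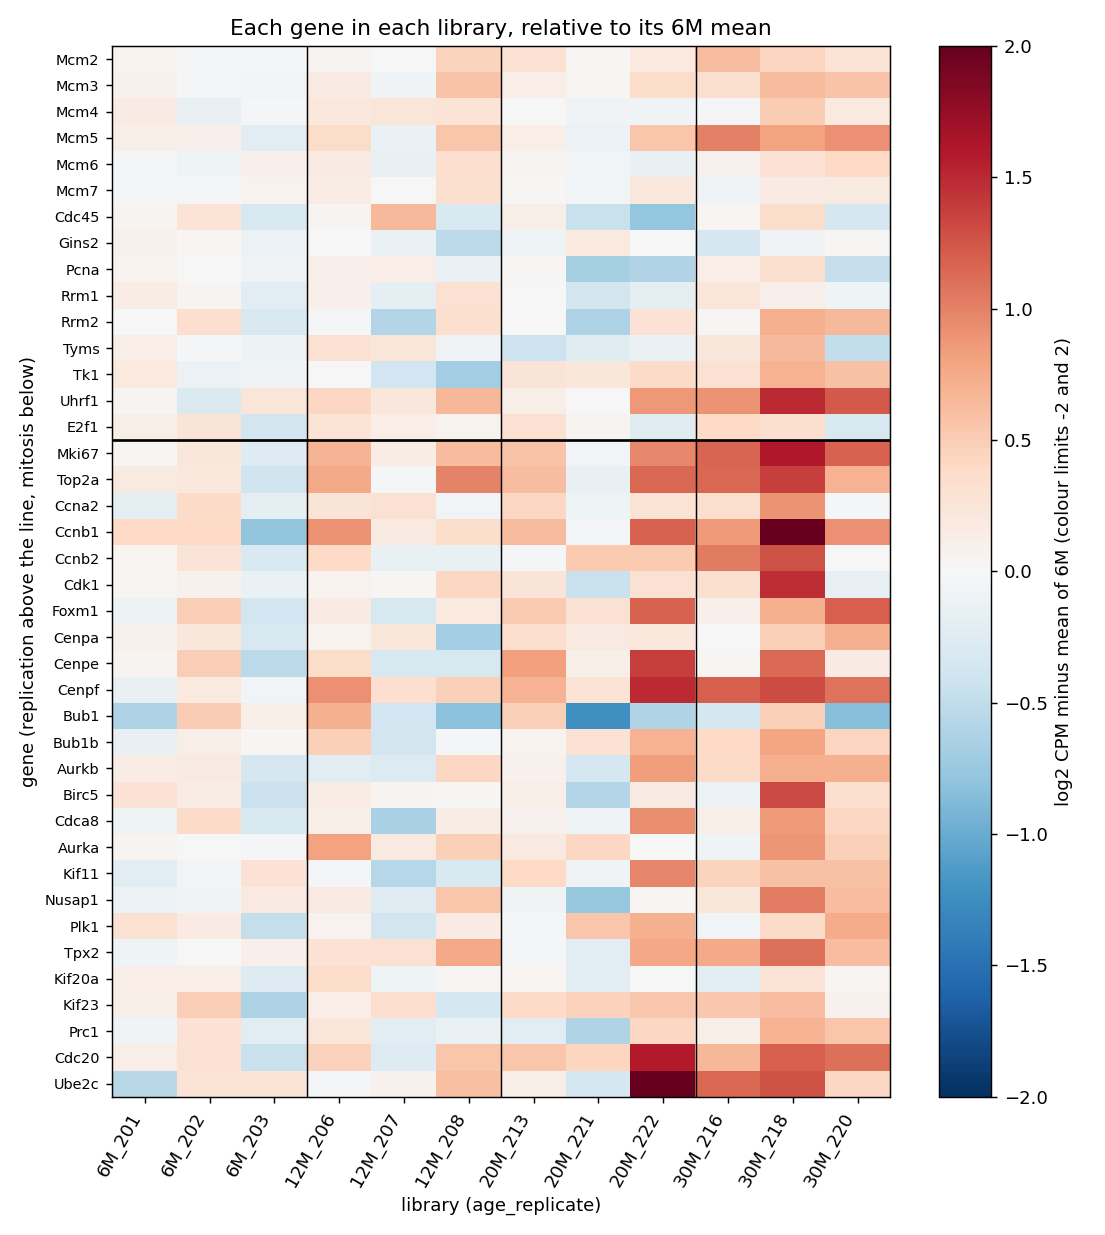
Log2 CPM minus the mean of the 6M libraries (colour, limited to -2 and 2) for each gene (rows, replication above the thick line and mitosis below) in each library (columns, by age). Above their 6M mean (red) were 25 of the 25 mitosis members in 30M_218, 24 in 20M_222, and 22 each in 30M_220 and 12M_206. In 6M_202 there were 21, in 20M_213 20, in 30M_216 19, and in the remaining libraries 6 to 16. Ube2c in 20M_222 and Ccnb1 in 30M_218 lie past the colour limit.

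Ube2c, the enzyme that starts ubiquitin chains for the anaphase-promoting complex, held 1 value that stood far from the rest. Ube2c (chromosome 2, 164769898 to 164778822) stood at 1.94, 3.55 and 3.56 CPM at 6M, 2.85, 3.12 and 4.48 at 12M, 3.16, 2.25 and 192 at 20M and 6.61, 7.22 and 3.94 at 30M. In 11 libraries it had 26 to 88 counts and in 20M_222 it had 2596. The end of Ube2c overlaps Tnnc2, the gene of fast skeletal troponin C (chromosome 2, 164777161 to 164779967), by 592 exon bases, which is 22.8% of the exon bases of Ube2c. Tnnc2 had 0 or 1 count in those 11 libraries and 2371 in 20M_222. Markers of skeletal muscle summed to 3184 CPM in 20M_222 against 11.3 to 41.6 in the other libraries. The sources used here do not give whether counting used the strand, so reads of the 2 genes cannot be told apart where they overlap. At 20M against 6M Ube2c had a log2 difference of 4.45 (edgeR adjusted p = 0.638), and without 20M_222 it was -0.16 (adjusted p = 0.998). At 30M against 6M its libraries did not overlap and the log2 difference was 0.97 (SE 1.45, edgeR adjusted p = 0.899). Without 20M_222 the adjusted p there was 0.236.

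**Figure D4:**
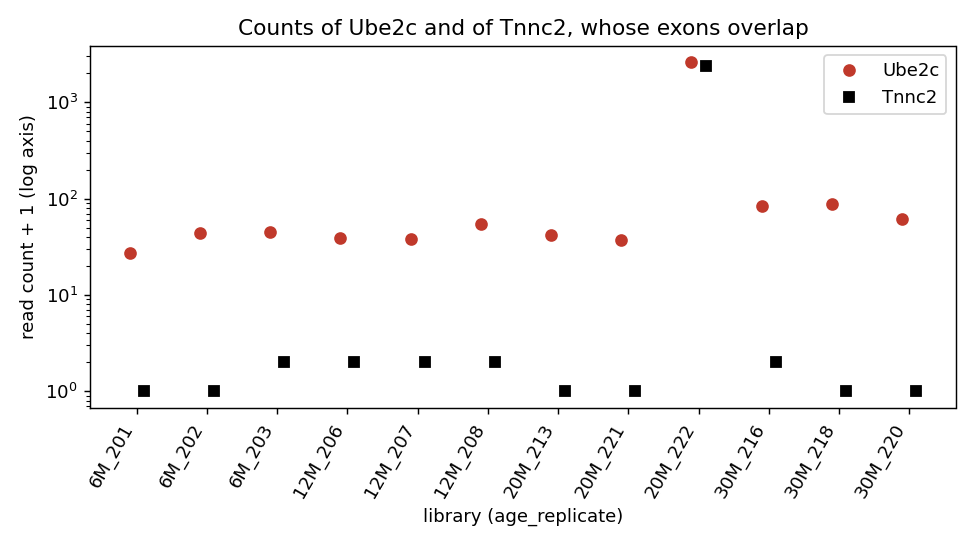
Read counts plus 1 (y axis, log scale) of Ube2c (red circles) and Tnnc2 (black squares) in each library (x axis). Ube2c lies between 26 and 88 counts except in 20M_222, where it has 2596 and Tnnc2, elsewhere at 0 or 1, has 2371.

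Replication and mitosis members were then compared as groups, first by the fit. At 30M against 6M the median log2 difference was 0.24 over the 15 replication members (range -0.12 to 1.24) and 0.63 over the 25 mitosis members (range -0.22 to 1.39). It was above 0 in 14 of the 15 and in 24 of the 25, against 50.5% of all genes. All 3 libraries of 30M lay above all 3 of 6M in 5 of the 15 and 11 of the 25, against 9.89% of all genes. Over Mcm2 to Mcm7, Pcna, Rrm1 and Rrm2 alone the median was 0.26. Without 30M_218 the medians were 0.0831 and 0.43, and no other library moved either by over 1.5 times. The medians without the 5 members that share at least 10% of their exon bases with another gene were 0.25 and 0.64. Mitosis members were the lower group in level, with a median of 0.945 CPM per kb at 6M against 2.79 for replication members, and 1.40 against 3.52 at 30M. Their exons also had less GC (median 47.8% against 51.7%), and with the GC trend of each library removed the medians at 30M against 6M were 0.29 and 0.64.

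In the comparisons of the other ages edgeR called no member. At 20M against 6M the median log2 difference was 0.03 over replication members and 0.37 over mitosis members, of which 20 of 25 were above 0 against 54.6% of all genes. EdgeR called 0 members there, with 0.0163% of all genes called, and 3 had an unadjusted p under 0.05 against 7.8% of all genes (Cenpf, Cdc20 and Ube2c). Cenpf and Cdc20 each had a log2 difference of 0.95 (adjusted p = 0.638), with 20M_222 as the highest library in both. DESeq2 called 0 and limma voom 1, Pcna. Without 20M_222 the mitosis median was 0.19, without 6M_203 it was 0.22, and for replication members the median lay between -0.108 and 0.0588 over the alternatives. At 12M against 6M the medians were 0.16 and 0.07, with 0% of all genes called, 0 members called by edgeR, DESeq2 or limma voom, and 0 with an unadjusted p under 0.05 against 3.6% of all genes. These 3 comparisons share the 6M libraries. At 30M against 12M the medians were 0.08 and 0.54, with 0.712% of all genes called, 0 members by edgeR or limma voom, 1 by DESeq2, and 6 with an unadjusted p under 0.05 against 10.9% of all genes. At 30M against 20M they were 0.31 and 0.23, with 0.212% of all genes called, 0 members by any of the 3 tools, and 5 with an unadjusted p under 0.05 against 8.89%. At 20M against 12M they were -0.10 and 0.29, with 0% of all genes called, 0 members by any of the 3 tools, and 3 with an unadjusted p under 0.05 against 11.2%.

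Seen library by library, the SD of the mitosis members was larger than that of the replication members at each age. For each library the median over the members of log2 CPM minus the 6M mean was taken. For replication members it was -0.01 ± 0.08 at 6M, 0.15 ± 0.15 at 12M, 0.00 ± 0.06 at 20M and 0.29 ± 0.12 at 30M (SD, n = 3). For mitosis members it was 0.00 ± 0.24, 0.11 ± 0.18, 0.30 ± 0.40 and 0.59 ± 0.29. The libraries 30M_216, 30M_218 and 30M_220 stood at 0.23, 0.43 and 0.20 for replication and at 0.33, 0.89 and 0.56 for mitosis. The libraries 20M_213, 20M_221 and 20M_222 stood at 0.06, -0.06 and 0.01 for replication and at 0.26, -0.07 and 0.72 for mitosis. Thus 20M_222 was within the 6M range for replication and second to 30M_218 for mitosis. Its replication value depends on the gene set, as over Mcm2 to Mcm7, Pcna, Rrm1 and Rrm2 alone it was 0.19, above the 6M libraries (-0.06 to 0.08) and above 30M_216 (0.13). In 20M_222, 24 of 25 mitosis members were above their 6M mean, and without Ube2c, 23 of 24 with a median of 0.70. Leading all libraries, 30M_218 held the highest value of 7 of the 15 replication and 13 of the 25 mitosis members, and 20M_222 that of 7 mitosis members. The replication median minus the mitosis median was -0.31 ± 0.19 at 30M and -0.30 ± 0.37 at 20M, against -0.01 ± 0.22 at 6M. The value of 30M_216, -0.09, was within the range of the 6M libraries, -0.25 to 0.18.

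**Figure D5:**
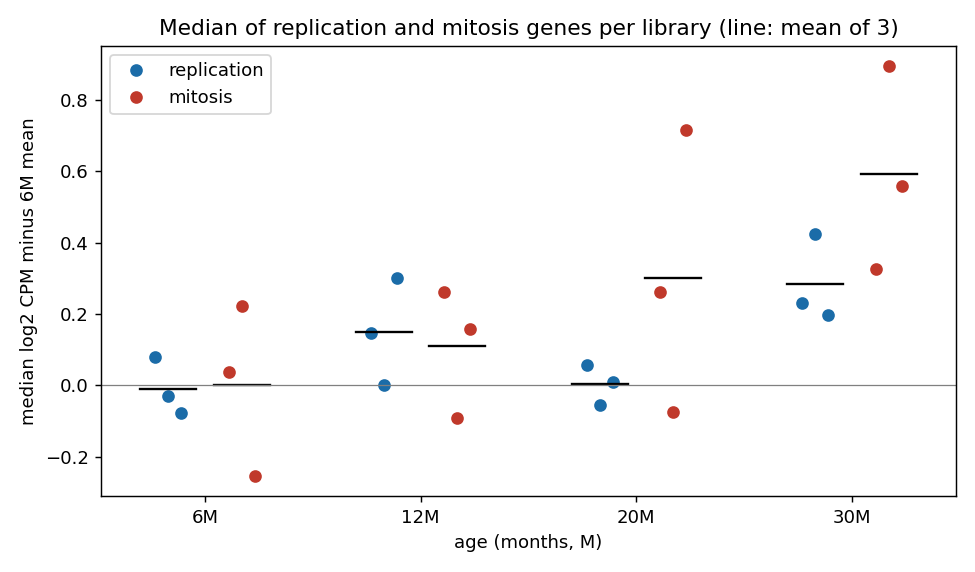
Median over the replication (blue) and mitosis (red) members of log2 CPM minus the 6M mean (y axis) in each library, by age in months (x axis), with a line for the mean of 3 libraries. Mitosis lies above replication in all 3 libraries of 30M and, among the others, in 6M_202, 12M_206, 20M_213 and 20M_222.

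The order of the age means was then counted. The highest age mean was at 30M in 10 of 15 replication and 18 of 25 mitosis members, against 24.1% of all tested genes. The lowest was at 6M in 6 and 12, against 25.8%. The mean rose at each step from 6M to 30M in 7 of the 40 members, against 6.35% of all genes, and these were the mitosis genes Mki67, Ccna2, Ccnb1, Ccnb2, Cenpf, Bub1b and Cdc20. This counts means, not calls, and in each of the 7 the libraries of 12M and 20M overlapped. Over the 4 ages jointly, with 1.11% of all genes called, edgeR called 0 members and 9 had an unadjusted p under 0.05 against 11.2% of all genes, while DESeq2 and limma voom called 4 each. In a fit of 1 slope over age in months, with 2.68% of all genes called and 2.5% called higher, 2 members rose and 15 had an unadjusted p under 0.05 against 13.3%. Mki67 rose by log2 0.51 per 10 months (adjusted p = 0.0114) and Uhrf1 by 0.47 (adjusted p = 0.0328). Without 30M_218 neither was called by slope, and 288 of all genes were, against 494 with all libraries. Without 6M_201, 6M_202, 6M_203, 12M_206, 12M_207 or 30M_220 the count was 1, Mki67, with 234 to 453 of all genes called. Without the 3 libraries of steep GC trend Mki67 and Cenpf were called by slope and Uhrf1 was not, and on log2 of age Mki67 alone was called.

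The promoter words were set beside the sizes of the differences. Mitosis members with a CHR word had a median log2 difference of 0.55 at 30M against 6M (16 genes) and those without 0.65 (4 genes). With an E2F word they had 1.33 (3 genes) and without 0.54 (17 genes). Replication members with an E2F word had 0.48 (7 genes, range 0.08 to 1.24) and those without 0.17 (6 genes, range 0.02 to 0.54). With a CHR word they had 0.09 (3 genes) and without 0.37 (10 genes). The ranges overlapped in each of these splits. The 7 members with no promoter entry are Tpx2, Aurkb, Foxm1, Gins2, Ccna2, Mcm4 and Kif20a.

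Genes of the same pathways outside the 40 were described in the same way. Of 32 other replication genes edgeR, DESeq2 and limma voom called 0 at 30M against 6M, where edgeR called 1.96% of all genes. In edgeR 4 of the 32 had an unadjusted p under 0.05, against 11.6% of all genes. The log2 difference was above 0 in 30, against 50.5%, and the median was 0.20. The flap endonuclease Fen1 went from 9.20 ± 1.46 to 13.6 ± 0.838 CPM (adjusted p = 0.198) and the ligase Lig1 from 13.3 ± 1.22 to 17.6 ± 1.52 (adjusted p = 0.267). Of 38 other mitosis genes edgeR called 0 and DESeq2 and limma voom 1 each, Racgap1. In edgeR 14 of the 38 had an unadjusted p under 0.05, against 11.6% of all genes. The log2 difference was above 0 in 36, against 50.5%, and the median was 0.61. The cytokinesis regulator Racgap1 went from 5.67 ± 1.24 to 11.6 ± 2.45 CPM (log2 1.03, adjusted p = 0.0552), and it rose in the fit of a slope (adjusted p = 0.03904). That call was lost without 6M_201, 6M_202, 6M_203, 12M_206, 12M_207, 30M_218 or 30M_220 (adjusted p 0.0514 to 0.143), without the 3 libraries of steep GC trend (0.112), with a term for them (0.0654) and without the filter on low counts (0.0578). The kinesin Kif2c went from 1.0003 ± 0.168 to 2.33 ± 0.775 CPM (adjusted p = 0.193).

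Of the genes that act before S phase or hold it back, none was called at 30M against 6M by edgeR, DESeq2 or limma voom. EdgeR called 1.96% of all genes there. For 8 G1 cyclin and kinase genes the median was 0.13, with 1 at an unadjusted p under 0.05, against 11.6% of all genes. Cyclin E1, Ccne1, had means of 1.17 CPM at 6M and 2.598 CPM at 30M (adjusted p = 0.303). Of 10 cell cycle inhibitors 3 had an unadjusted p under 0.05, against 11.6% of all genes, and the median was 0.06. Cdkn2a, which encodes p16 and ARF, was at 0.485 and 1.15 CPM (log2 1.26, adjusted p = 0.377). Cdkn1a, which encodes p21, was at 127 ± 60.01 and 102 ± 39.001 CPM (log2 -0.31, adjusted p = 0.919). Cdkn2d was at 15.4 and 23.0 CPM (adjusted p = 0.177) and Cdkn2b at 30.1 and 20.8 (log2 -0.53, adjusted p = 0.226). Of 15 genes of E2F and DREAM factors 0 had an unadjusted p under 0.05, against 11.6% of all genes, and the median was -0.03. These adjusted p are from edgeR over all genes.

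Markers of several cell types moved with age in the same libraries, and their part in the differences above was not tested. The counts of markers called at 30M against 6M stand beside 1.96% of all genes called by edgeR. Beside the members, markers of interstitial macrophages summed to 154 to 185 CPM at 6M and 425 to 520 at 30M (6 of 8 called). Those of plasma cells summed to 474 to 518 CPM at 6M and 1298 to 2192 at 30M (3 of 7 tested called). They already reached 581 to 2434 at 12M and 866 to 2316 at 20M. Without Igkc, their most abundant marker, the plasma cell sums were 370 to 373 at 6M and 448 to 714 at 30M. T cell markers summed to 61.0 to 90.7 CPM at 6M and 110 to 168 at 30M (3 of 10 called, none at 0), with 30M_218 the highest. Markers of erythroid precursors, which divide, summed to 5.42 to 8.75 CPM at 6M and 14.0 to 42.6 at 30M, again with 30M_218 the highest, and 1 of 5 tested was called. Their marker Hemgn was at 0 in all 6M libraries. Markers of germinal centre B cells, which also divide, summed to 44.9 to 48.5 and 46.9 to 50.2 CPM (0 of 5 tested called by edgeR, DESeq2 or limma voom). Most of that sum was S1pr2, and without it the sums were 4.04 to 5.94 and 5.496 to 10.01 CPM, with overlap.

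Neutrophil precursors are a further dividing cell type, and most of the sum of their markers was Ltf, which mature neutrophils also hold. Ltf stood at 80.7 to 133 CPM at 6M and 65.8 to 220.7 at 30M. Without Ltf the sums were 1.42 to 3.38 CPM at 6M and 3.88 to 24.2 at 30M, with no overlap and 30M_218 the highest. Of the 3 markers tested, all were above 0 at 30M against 6M (median log2 difference 1.47). EdgeR called 0, and 1 had an unadjusted p under 0.05, against 11.6% of all genes. That 1 was Prtn3, a granule protease, which went from 0.655 ± 0.427 to 3.697 ± 2.42 CPM (log2 2.47, adjusted p = 0.06999) and which DESeq2 and limma voom called higher. In the fit of a slope edgeR called Prtn3 higher (adjusted p = 0.0252), and lost that call without 6M_203 (0.0653), 30M_216 (0.05399) or 30M_218 (0.171) and on log2 of age (0.0755). The granule genes Mpo, Elane, Ctsg and Fcnb had counts too low to test, at 0 to 0.0825 CPM in the 6M libraries and 0.0806 to 1.64 CPM in those of 30M. The part of these cells in the differences of the members was not tested.

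B cell markers summed to 160 to 333 CPM at 6M and 86.8 to 339 at 30M, with overlap. The overlap came from 30M_220 at 339, as 30M_216 at 93.0 and 30M_218 at 86.8 lay below every library of the other ages. Of the 8 markers 0 had a log2 difference above 0 at 30M against 6M (median -0.46), and edgeR called 0. Markers of alveolar type 2 cells, which define lung tissue, summed to 30686 to 35423 CPM at 6M and 18766 to 31998 at 30M. At 30M against 6M, where 50.5% of all genes were above 0, 0 of these 8 markers were (median log2 difference -0.31). EdgeR called 0. Those of capillary endothelium summed to 1968 to 2238 CPM at 6M and 2096 to 3059 at 30M, with overlap. The 3059 was 30M_220, and 12M_208 stood at 3439. Of the 8 capillary markers 6 were above 0 (median log2 difference 0.13), and edgeR called 0. Alveolar macrophage markers summed to 462 to 669 CPM at 6M and 393 to 678 at 30M, with overlap. Of these 8 markers 3 were above 0 at 30M against 6M (median log2 difference -0.18). EdgeR called 0 of them there, DESeq2 2 (Itgax and Marco) and limma voom 1 (Marco). By slope edgeR called 2 of the 8 higher, against 2.5% of all genes. The slope was above 0 in 4 of the 8, with a median of log2 -0.0046 per month.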

How the data were processed

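The authors deposited raw read counts for each gene and library. The submitters' processing notes name HISAT2 2.1.0 and featureCounts, beside Trimmomatic 0.38 and FastQC 0.11.7, and the build GRCm38 (mm10). Poly-A selected mRNA was read in pairs, per the labels' protocols. Not given in the sources used here are the featureCounts version, the annotation release and the use of strand.

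The main test was edgeR's quasi-likelihood test (version 4.0.16 under R 4.3.3, with TMM, filterByExpr by age, robust fit, all 12 libraries, age as a factor), adjusted over all 18407 tested genes. The common biological coefficient of variation was 0.236. DESeq2 1.42.0 and limma 3.58.1 were alternatives. Log2 CPM per library used a prior count of 2, and exon lengths, GC content and overlaps came from GENCODE M21 (GRCm38). The test was also run on counts simulated from its own model. Those counts held no GC trend and no library with extra muscle transcripts, so that run cannot vouch for the test on such libraries. All columns were mapped to libraries by their names.

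The members and gene lists were chosen with earlier results of these data known. Values in every library are given for members called in any comparison, the 10 with the smallest p over the 4 ages or at 30M against 6M, and the members with the largest and smallest difference at 30M against 6M in each group. From each pathway list the genes with the smallest p are named, with Cdkn1a and Cdkn2a always. Pcna was added after its values were seen.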

Additional observations from a re-analysis of the deposited data

How the results depend on the processing

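Over all settings run, 33 to 39 of the 40 members had a log2 difference above 0 at 30M against 6M, and the median over all genes lay between -0.0245 and 0.00896. The count of called members there, 2, was 5 with DESeq2 (Cenpf, Mcm5 and Top2a added), 1 without the 3 libraries of steep GC trend, 1 with a term for them, and 0 to 4 with 1 library left out. It was 1 at 20M against 6M with limma voom, and 1 at 30M against 12M with DESeq2. The joint count, 0, was 4 with DESeq2, 4 with limma voom, 1 without a filter on low counts and 0 to 1 with 1 library left out (Mki67 without 20M_221 or 20M_222). The count by slope, 2, was 5 with DESeq2, 4 with limma voom, 1 on log2 of age and 0 to 3 with 1 library left out. The other settings kept each count of members within 1.5 times, though an equal count can hold other members (Cenpf and Mki67 by slope without the 3 libraries of steep GC trend). The count over all genes moved as well. At 30M against 6M it was 361, with DESeq2 753, with limma voom 595 and with 1 library left out 69 to 415. By slope it was 494, with DESeq2 900, with limma voom 585 and with 1 library left out 234 to 608. On log2 of age it was 254.

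The replication median at 30M against 6M ranged from 0.0831 to 0.34 with 1 library left out. At 20M against 6M it was -0.0328 with the GC trend removed, -0.0498 over Mcm2 to Mcm7, Pcna, Rrm1 and Rrm2, and -0.108 to 0.0537 with 1 library left out. Mitosis medians with 1 library left out were 0.43 to 0.74 at 30M, 0.19 to 0.46 at 20M and -0.0120 to 0.20 at 12M. Bub1 at 30M against 6M, -0.22, was 0.0528 without the 3 libraries of steep GC trend, 0.119 with a term for them and -0.68 to 0.0624 with 1 library left out. Ube2c at 20M against 6M was -0.16 to 5.01 with 1 library left out. The cause was not tested for any of these.

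No paired analysis was possible because the ages share no replicate numbers. The settings without the overlapping members, without Ube2c and for Ube2c at 20M were chosen after seeing the data. With 3 libraries per age and a spread of this size, a change that misses the threshold is not shown to be absent. Most mitosis members had low counts, and strand use is unknown, so members that share exons with a gene on the other strand (12 of 40) carry uncertain counts.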

Other observations

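Summed over the 15 replication members, levels were 298 to 332 CPM at 6M and 330 to 397 at 30M. Summed over the 25 mitosis members they were 105 to 143 CPM at 6M and 171 to 243 at 30M. In 20M_222 the mitosis sum was 378 CPM, and 186 without Ube2c.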
